A study of Mus musculus with 4 samples.

Results

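A small part of the H3K9me2 regions called in mouse neural stem cells had their centre in the exons of protein-coding genes. The list of H3K9me2 regions held 36171 entries, of which 35649 lay on chromosomes 1 to 19. Of these, 587 had their centre in a coding exon or an untranslated region (UTR) of a protein-coding transcript and more than 1 kb from any protein-coding start. They comprised 282 regions in coding exons (48.0%), 295 in 3' UTRs (50.3%) and 10 in 5' UTRs (1.70%). A centre that was coding in one transcript and untranslated in another counted as coding. Another 97 exonic regions lay within 1 kb of a start and were not members. The 3 nearest of those outside the limit had their centres 978, 985 and 994 bp from a start, and the 3 nearest inside it 1027, 1062 and 1071 bp.

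The cells were neural stem cells of strain C57BL/6J, wild type, from stage E12.5, cultured in medium whose growth factors, which keep such cells dividing, were EGF (20 ng/ml) and FGF (10 ng/ml). Chromatin had been precipitated with an antibody to H3K9me2 (Abcam ab1220) in 1 sample and with one to the demethylase PHF2 (Cell signaling D45A2) in another. Each target had 1 sample, so no spread between cultures could be measured, and the inputs were not analysed here. The lists hold positions of called regions and no read totals, so the depth is unknown, and the cell type could not be checked against marker genes because no expression values were used. All intervals below are 95% intervals that take regions as independent and cover counting error only.

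H3K9me2 stands for 2 methyl groups on lysine 9 of histone H3. The mark is written mainly by the paired enzymes Ehmt1 and Ehmt2, is read by chromodomain proteins, and is a known feature of silent or weakly expressed chromatin, where it often covers broad domains. Exons carry the sequence of the mature transcript, and the 3' UTR, which follows the stop codon, holds sites that govern the stability and translation of the messenger RNA.

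The DNA under a few of the regions shows what kind of sequence was called. The stretches below are the central 30 bases of the longest regions that lay wholly in coding sequence and outside the UTRs of every transcript of protein-coding genes, those subject to nonsense-mediated decay included. One chromosome was left out of the choice. Shown are 4 genes of no receptor or zinc finger family, 3 of the receptor genes and the 1 zinc finger gene that met these conditions. The region of Ccr3 has the minimum length, which Gpr158 and Nr5a2 share, and stands for these by alphabetical order. They are read from the GRCm38 reference (mm10), 5′ to 3′ on the strand of the gene, and capitals mark CpG dinucleotides, the main target of DNA methylation.
Ttn: ttcCGgaatgacagCGaacttcaCGaaagc
Tab2: ctaggcagcaaagggacatcaaacctttct
Lrrk2: caccaacctagatgcctctCGaaatgacat
Scn1a: gtggaacctaCGgaggaCGtgcttcCGaat
Ccr6: acctgttgaacatggccatcacagacatac
Plxna4: aaactctctagtgacctcaaagtcttggtg
Ccr3: aacacaaggccatcCGtcttatttttgttg
Zfp772: catgaacatggagagtggagaggccattca

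These stretches lay at chr2:76887948-76887977 (Ttn, minus strand), chr10:7920213-7920242 (Tab2, minus), chr15:91738808-91738837 (Lrrk2, plus), chr2:66302430-66302459 (Scn1a, minus), chr17:8256191-8256220 (Ccr6, plus), chr6:32517437-32517466 (Plxna4, minus), chr9:124029342-124029371 (Ccr3, plus) and chr7:7204131-7204160 (Zfp772, minus). The 30 bases of Ttn and of Scn1a hold 3 CpGs each, those of Lrrk2 and Ccr3 hold 1, and the other four hold none. Their GC content is highest in Scn1a, at 56.7%. Zinc finger proteins of the C2H2 type join their fingers by a short linker whose Gly-Glu-Lys can be written GGNGAGAAA, and these letters are not in the region of Zfp772. Searched on both strands, they occurred in 2 of the 282 coding regions (0.709%), in Zfp1 and in Lta4h, which was named after its value was seen. Among windows of 73 bp tiled over all coding exons away from starts, 0.821% held them.

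H3K9me2 regions were as dense in coding exons as in 3' UTRs within counting error, and sparser in both than in introns. Coding exons held 9.98 regions per Mb (8.85 to 11.2) over 28.3 Mb, and 3' UTRs held 9.74 per Mb (8.66 to 10.9) over 30.3 Mb. The ratio of the densities was 1.02 (exact interval 0.868 to 1.21). Introns of the same annotation held 12173 regions, or 14.1 per Mb (13.8 to 14.3). Against introns, coding exons stood at a ratio of 0.710 (0.629 to 0.799) and 3' UTRs at 0.693 (0.615 to 0.778), and neither interval reaches 1. Outside protein-coding transcripts the density was 15.9 per Mb. The 10 regions in 5' UTRs gave 14.2 per Mb (6.79 to 26.0), an interval that holds the densities of all the other classes.

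**Figure D1:**
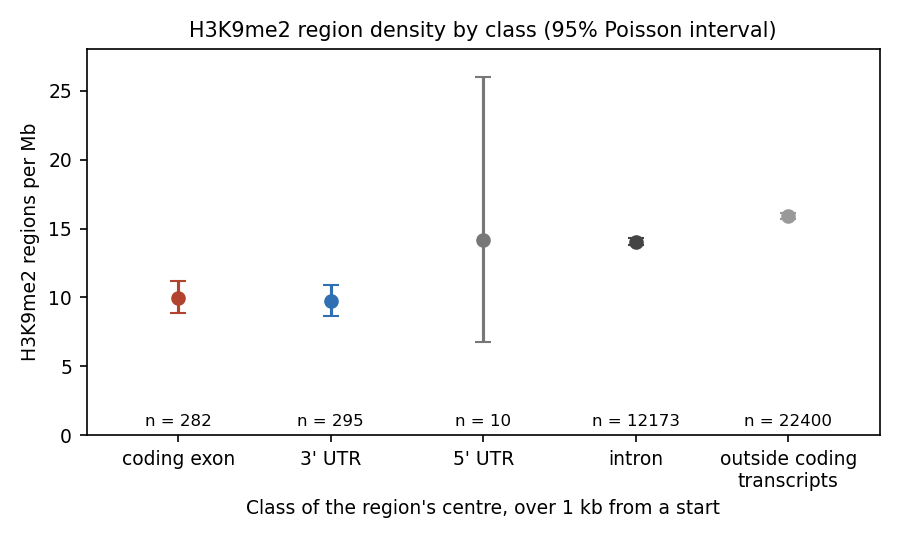
H3K9me2 regions per Mb (y axis) by the class of the region's centre (x axis), for bases over 1 kb from a protein-coding start; points are densities, bars are 95% Poisson intervals, and n is the number of regions. Coding exons (9.98) and 3' UTRs (9.74) sit side by side below introns (14.1), and the bar of 5' UTRs is wide because it rests on 10 regions.

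The ratio between both exon classes rests on counting a region by its centre. Where only regions wholly inside exons counted, coding exons stood at 0.572 (0.467 to 0.699) of the density in 3' UTRs. Where an overlap of 1 bp was enough and coding sequence took precedence, they stood at 1.47 (1.27 to 1.71). Both alternatives divided by the same 28.3 and 30.3 Mb, so exon length bears on both ratios by construction. Coding sequence lay in shorter pieces: 14.5 of its 28.3 Mb fell in exons of up to 200 bp, against 27.1 of the 30.3 Mb of 3' UTR in exons over 1000 bp. Within coding sequence the density differed little by exon length, from 8.81 per Mb (6.71 to 11.4) in exons over 200 and up to 1000 bp to 10.6 per Mb (8.32 to 13.3) in those over 1000 bp. The 59 regions in coding exons of up to 120 bp gave 10.2 per Mb (7.77 to 13.2), so the shortest exons held as many regions per base as the longest within these intervals.

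Base composition set coding exons and 3' UTRs apart from each other more than the density of regions did. Median GC content was 49.7% in coding regions and 42.9% in those of 3' UTRs, close to the 50.7% and 43.8% of windows of 73 bp tiled over the same classes. CpG was absent from 63 of the 282 coding regions (22.3%, exact interval 17.6% to 27.7%) and from 169 of the 295 in 3' UTRs (57.3%, 51.4% to 63.0%). Windows tiled over the classes lacked CpG in 22.1% and 53.3%. At the highest GC content, however, members were scarce for their class: bases of 60% GC or more made up 16.9% of coding exons and held 6.03% of their regions, and made up 5.36% of 3' UTRs and held 2.71%.

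Both exon classes were poor in regions where GC content was highest. In bases whose surroundings held 60% GC or more, coding exons had 3.55 regions per Mb (2.07 to 5.68), 3' UTRs 4.93 (2.13 to 9.71) and introns 6.89 (5.91 to 7.99). At 40 to 50% GC the same classes had 11.7, 12.7 and 16.3 per Mb. The classes of exon parted only at 50 to 60% GC, where coding exons had 11.4 per Mb (9.45 to 13.5; 124 regions) and 3' UTRs 7.45 (5.55 to 9.79; 51 regions), a ratio of 1.53 (1.09 to 2.16). This was 1 of 4 GC classes compared, and the interval is not adjusted for that. Compared within all 4 GC classes, the ratio of coding exons to 3' UTRs was 1.10 (0.927 to 1.31), that of coding exons to introns 0.770 (0.684 to 0.867), and that of 3' UTRs to introns 0.709 (0.632 to 0.796).

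**Figure D2:**
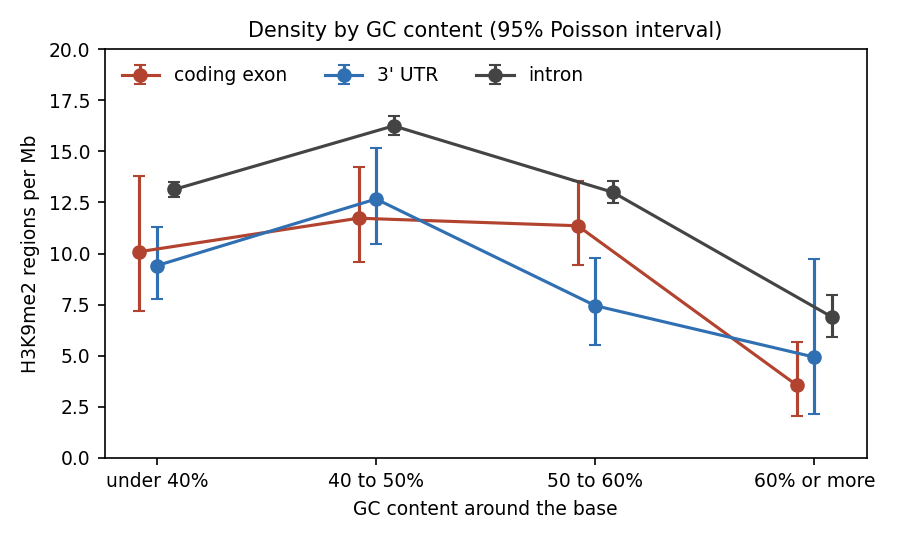
H3K9me2 regions per Mb (y axis) by the GC content of the 73 bp around each base (x axis, 4 classes) for coding exons, 3' UTRs and introns; points are densities and bars 95% Poisson intervals. All 3 lines fall in the class of 60% or more, to 3.55 in coding exons and 6.89 in introns, and the exon lines separate at 50 to 60% (11.4 against 7.45).

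Soft-masked bases, which the reference shows in lower case, took 4.58% of coding bases, 19.2% of 3' UTR bases and 28.5% of intron bases. The kinds of sequence behind the masking were not told apart. With centres in soft-masked bases left out, coding exons held 10.1 regions per Mb, 3' UTRs 9.69 and introns 15.8. The ratios to introns were then lower, 0.639 (0.565 to 0.721) for coding exons and 0.614 (0.537 to 0.698) for 3' UTRs. Nearly all members had sequence found once in the genome. The median stretch of 31 bases occurred more than once in 3 of 587 members (0.511%, exact interval 0.106% to 1.49%), against 2.10% (1.95% to 2.26%) of the other regions on chromosomes 1 to 19. The 3 were in the coding sequence of Slc25a40 and H2-M10.1 and the 3' UTR of Vmn1r183, named after their values were seen. In windows tiled over coding exons the share was 5.95%, and over 3' UTRs 7.02%. Exonic sequence with several copies was thus rarer in the list than in the annotation, and how reads with several matches were treated is not given in the sources used here.

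Along the transcript the members were spread over the whole coding sequence and the whole 3' UTR. Coding sequence divided into 3 equal parts per transcript had 11.6 regions per Mb (9.31 to 14.2) in the part nearest the start codon, 9.06 (7.29 to 11.1) in the middle and 9.66 (7.88 to 11.7) in the part nearest the stop codon. In 3' UTRs the first, middle and last parts had 8.72 (6.94 to 10.8), 8.85 (7.13 to 10.9) and 11.5 per Mb (9.56 to 13.8). These intervals overlap, which does not exclude a difference, and the differences between parts were not tested. The last exon held 62 of the 282 coding regions (22.0%, 17.3% to 27.3%), and it also held 21.4% of the coding bases considered.

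The regions were short. Of the 587, 339 had the minimum length in the list, 73 bp, and the share was alike in coding exons (57.4%, 51.5% to 63.3%), 3' UTRs (58.3%, 52.5% to 64.0%) and introns (56.2%). In all, 442 lay wholly inside the exon that held their centre. The longest, 214 bp, lay in Ttn, the gene of titin, the giant elastic protein of muscle, at chr2:76887856-76888069 in exon 77 of 347. Next in coding exons came 208 bp in Tab2 (chr10:7920124-7920331, exon 3 of 7), an adaptor in inflammatory kinase signalling, and 191 bp in Nup93 (chr8:94305267-94305457, exon 14 of 23), a scaffold protein of the nuclear pore. A region of 187 bp lay in exon 10 of 16 of Gria2, an AMPA-type glutamate receptor subunit, and one of 140 bp in exon 24 of 51 of Lrrk2, a kinase known from Parkinson disease. Sptb, a spectrin of the membrane skeleton, had 170 bp, Cep95, a centrosomal protein, 168 bp, and Invs, the ciliary protein inversin, 165 bp.

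In 3' UTRs the longest region had 199 bp and lay in the last of the 43 exons of Ank3 (chr10:70027216-70027414), the ankyrin that organises the initial segment of axons. Plek, the platelet protein pleckstrin, had 178 bp, and Spopl, an adaptor of a ubiquitin ligase, 173 bp with a GC content of 22.5%. Mrpl17, a protein of the mitochondrial ribosome, had 171 bp, and Gorasp2, a Golgi stacking protein, 155 bp. Vdr, the vitamin D receptor, had 141 bp at chr15:97854849-97854989.

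The members fell in 574 genes, which is 2.88% of the 19929 protein-coding genes with exonic bases far enough from a start. In 555 of them there was 1 region, in 18 there were 2, and Ttn had 3. The regions in 7 places lay in exons of more than 1 gene and count for each of those genes. Genes with more exonic bases were hosts more often. Over 4 equal groups by total exonic length, the share with a region was 0.501%, 1.77%, 3.05% and 6.21%, from the shortest to the longest. The median exonic length was 4184 bp in hosts and 2340 bp in the other genes.

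Titin had the most regions. Besides the one in exon 77, regions of 73 bp lay in exon 70 (chr2:76891413-76891485) and exon 242 (chr2:76792854-76792926). The gene has 107 kb of exonic sequence away from starts, which ranks 2 among the genes tested, and its 3 regions amount to 27.9 per Mb (5.76 to 81.7), an interval that includes the density of all coding exons. Nup93 had regions in exons 11 and 14, and Ryr2, the calcium release channel of heart muscle, in exons 6 and 83 of 105. Col22a1, a collagen of tissue junctions, had them in exons 17 and 58 of 64. Myt1l, a zinc finger factor of neurons outside the Zfp naming, had them in the neighbouring exons 14 and 15. In 8 genes, among them Ank3, Ccdc88a, Wrn, Ptprd, Ythdf3 and Macc1, 1 region lay in a coding exon and 1 in the 3' UTR. In 5 genes both lay in the 3' UTR, among them Gbp4, an interferon-induced GTPase, Onecut2, a homeodomain factor, and the vomeronasal receptor genes Vmn2r67 and Vmn2r74.

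Families were read against the 2.88% of all genes. Of 33 families defined by gene symbol, which overlap in part, the share of genes with a region had an exact interval wholly above 2.88% in 2, and in none did the interval lie wholly below it. Collagens had 5 hosts of 42 genes (11.9%, 3.98% to 25.6%) and the group of myosins, titin and other giant cytoskeletal proteins 6 of 59 (10.2%, 3.82% to 20.8%). Both consist of long genes, with a median exonic length of 5668 bp and 6704 bp against 2382 bp in all genes. Per base, collagens had 24.3 regions per Mb (8.92 to 52.9) and the cytoskeletal group 14.3 (6.54 to 27.2), and both intervals include the 9.80 per Mb of all genes taken one by one. The intervals are not adjusted for the number of families.

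**Figure D3:**
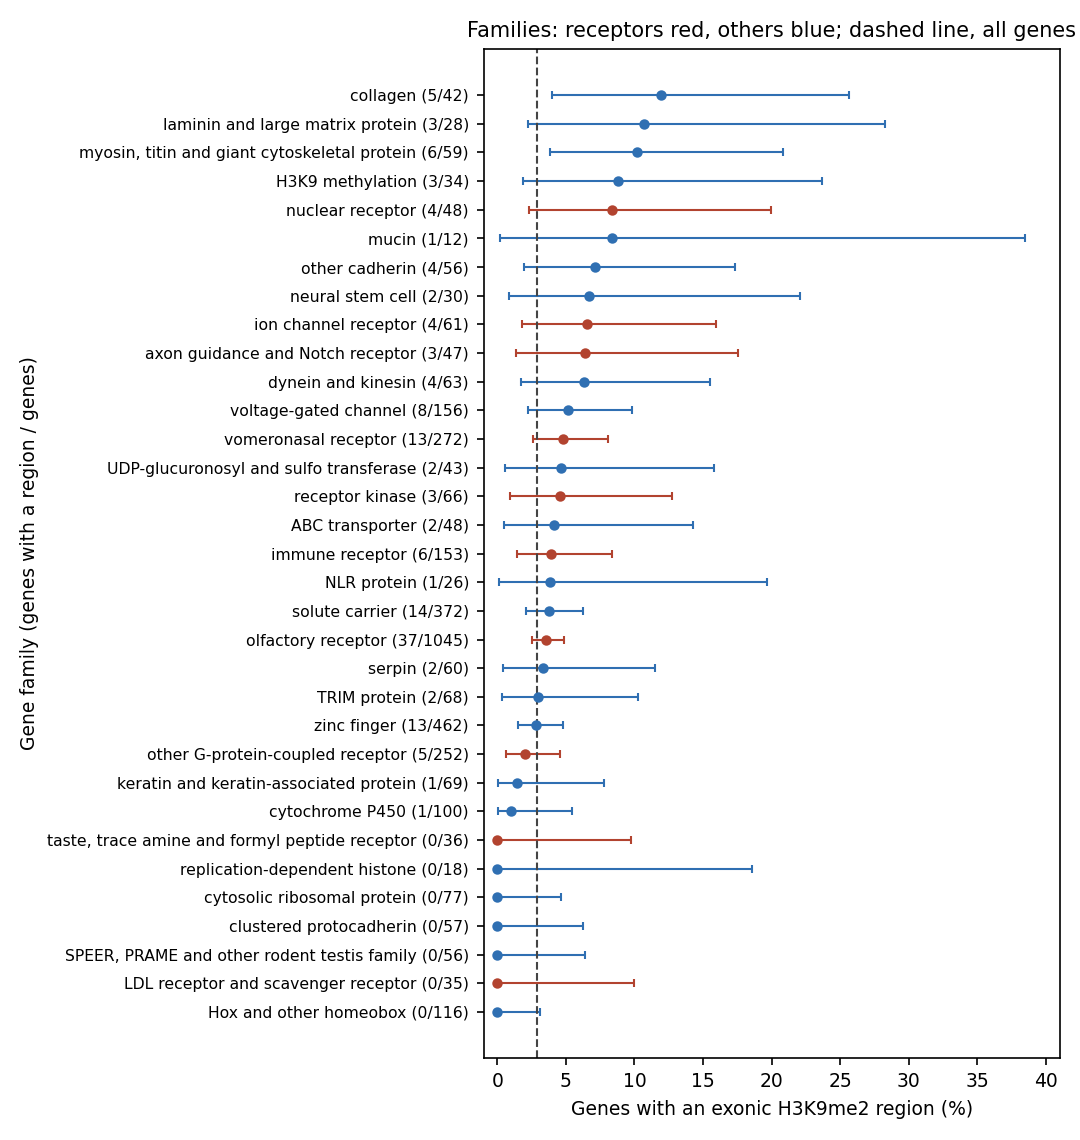
Percentage of genes with an exonic H3K9me2 region (x axis) in 33 gene families (y axis, with hosts and genes in each); points are percentages, bars exact 95% binomial intervals, red marks receptor families and the dashed line is the 2.88% of all genes. Collagens (11.9%) stand at the top, zinc finger genes (2.81%) lie on the line, and 7 families have no host.

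Receptor genes as a whole had 75 hosts of 2015 (3.72%, 2.94% to 4.64%), an interval just above the 2.88% of all genes. Of its 79 regions, 17 lay in coding exons and 62 in 3' UTRs, at densities of 10.6 and 14.8 per Mb, and most exonic bases of these genes away from starts were 3' UTR. Olfactory and vomeronasal receptors, the chemoreceptors of the nose, supplied 53 of the 79. The other receptor families had 25 hosts of 698 genes (3.58%, 2.33% to 5.24%) and 26 regions, 14 in coding exons and 12 in 3' UTRs. Their density, 10.5 per Mb, stood at a ratio of 1.12 (0.723 to 1.66) to the genes of no receptor family.

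Olfactory receptor genes carried the clearest excess per base over the exons of other genes. They had 38 regions in 37 of 1045 genes (3.54%, 2.50% to 4.85%). The density was 17.4 per Mb (12.3 to 23.9) against 9.51 in all other genes, a ratio of 1.83 (1.28 to 2.55). That interval of the density includes the 14.1 per Mb of introns and the 15.9 per Mb outside protein-coding transcripts. Nearly all the regions, 36 of 38, lay in 3' UTRs, where the density stood at a ratio of 2.04 (1.40 to 2.90) to the 8.83 per Mb of genes outside both chemoreceptor families. The coding sequence of these small genes seldom reaches beyond 1 kb from a start, and only 0.113 Mb of it could hold a member, against 2.00 Mb of 3' UTR. The 38 regions lay on 13 chromosomes, 10 of them on chromosome 2 and 8 on chromosome 7. Their distance to the nearest PHF2 peak ran from 23088 bp to 2351189 bp with a median of 534302 bp, and 84.2% of them lay beyond 200 kb, against 32.5% of all members. The part of this distance in the excess was not tested. Olfr2 had the longest, 144 bp at chr7:106997664-106997807, and Olfr1221 had 134 bp, Olfr553 112 bp and Olfr1020 108 bp.

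With both chemoreceptor families left out, 3' UTRs held 8.83 regions per Mb and coding exons 9.93, a ratio of coding exons to 3' UTRs of 1.12 (0.944 to 1.34). Vomeronasal receptors, which detect pheromones, had 15 regions in 13 of 272 genes (4.78%, 2.57% to 8.03%), and 14 of these lay in 3' UTRs. Their density of 11.7 per Mb stood at a ratio of 1.20 (0.667 to 2.00) to other genes. Of their 15 regions, 12 (80%) lay beyond 200 kb from the nearest PHF2 peak. Vmn2r74 held regions of 133 and 73 bp in exon 6 of 6, and Vmn2r67 regions of 86 and 73 bp in its own exon 6. Members of this family are near copies of each other, and the submitters' handling of reads that match several places is not given in the sources used here.

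Zinc finger genes did not stand out in their share of hosts or in their density over all exons. The proteins are DNA-binding factors, many of which silence repeats through H3K9 methylation. Hosts were 13 of the 462 genes named Zfp or alike (2.81%, 1.51% to 4.76%), next to 2.88% of all genes. Their density was 7.35 per Mb (3.91 to 12.6), a ratio of 0.745 (0.394 to 1.28) to other genes. Of the 13 regions, 10 lay in 3' UTRs and 3 in coding exons, at densities of 11.0 and 3.63 per Mb. All genes taken one by one had 9.61 and 9.89. The lower coding value rests on 3 regions, and the difference was not tested. Defined instead by 3 or more C2H2 patterns in the longest coding sequence, zinc finger genes had 18 hosts of 626 (2.88%, 1.71% to 4.51%). Zfp738 had the longest region, 122 bp in the 3' UTR at chr13:67667019-67667140. Zfp772 had 100 bp in the coding part of exon 5 of 5, and Zfp1 had 73 bp in the coding part of exon 4 of 4, with the linker letters in the region. Zfp644, a partner of Ehmt1 and Ehmt2, had 84 bp in its 3' UTR.

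Receptors for growth factors and guidance cues were among the hosts. Egfr, the receptor of the EGF in the culture medium, had a region of 126 bp in exon 3 of 28 (chr11:16860010-16860135). Kdr, a receptor for vascular endothelial growth factor, had 79 bp in the coding part of the last of its 30 exons. Erbb4, a neuregulin receptor, had 73 bp in its 3' UTR. Receptor kinases together had 3 hosts of 66 genes (4.55%, 0.947% to 12.7%). Axon guidance and Notch receptors had 3 of 47 (6.38%, 1.34% to 17.5%): Robo2, a receptor for Slit proteins, in exon 12 of 29, Plxna4, a semaphorin receptor, in exon 2 of 32, and the receptor phosphatase Ptprd in exon 19 of 36 and in its 3' UTR.

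Transmitter and hormone receptors gave small counts too. Ion channel receptors had 4 hosts of 61 (6.56%, 1.81% to 15.9%): Gria2, the glutamate receptor Grid1 (100 bp, exon 12 of 16), the ATP-gated P2rx1 (73 bp, exon 11 of 12) and the GABA receptor subunit Gabrb1 (73 bp, 3' UTR). Nuclear receptors had 4 of 48 (8.33%, 2.32% to 20.0%): the progesterone receptor Pgr (84 bp) and the orphan receptor Nr5a2 (73 bp) in coding exons, and Vdr and Esrrb (77 bp) in 3' UTRs. Other G-protein-coupled receptors had 5 of 252 (1.98%, 0.647% to 4.57%), with the chemokine receptors Ccr6 (93 bp) and Ccr3 (73 bp) and the neuronal Gpr158 (73 bp) in coding exons. Immune receptors had 6 of 153 (3.92%, 1.45% to 8.34%), of which Clec14a, a lectin of blood vessels, had the longest, 127 bp in the 3' UTR. All of these intervals include 2.88%.

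Genes in none of the 33 families, 15881 of the 19929 tested, held 221 of the 282 coding regions. Their density in coding exons was 9.77 per Mb, against 9.89 in all genes taken one by one. Among the families not yet described, voltage-gated and related channels had 8 hosts of 156 genes (5.13%, 2.24% to 9.85%), with 134 bp in exon 19 of 27 of Scn1a, a sodium channel of neurons, and 141 bp in the 3' UTR of Kcnv2, a modifying subunit of potassium channels. Cadherins outside the clustered protocadherins had 4 of 56 (7.14%, 1.98% to 17.3%), all in coding exons, in Cdh8, Cdh23, Dchs2 and Cdh2, the N-cadherin of neural tissue. Solute carriers, which move metabolites across membranes, had 14 of 372 (3.76%, 2.07% to 6.23%). Fn1, the gene of the matrix protein fibronectin, had 100 bp in exon 19 of 46.

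No exonic region was found in 7 families. Under the symbol pattern for Hox and other homeobox genes, many of which choose positional identity, the count was 0 of 116 (exact upper limit 3.13%). It was 0 of 77 cytosolic ribosomal protein genes (4.68%) and 0 of 57 clustered protocadherins (6.27%), which label single neurons. Onecut2 lies outside the symbol pattern of the homeobox list. So do the homeobox genes En2, Vsx1 and Prrx1, which had regions and were named after these were seen. The 0 thus holds for the genes under the pattern and not for homeobox genes at large. Rodent testis families had 0 of 56 (6.38%), taste, trace amine and formyl peptide receptors 0 of 36 (9.74%), lipoprotein and scavenger receptors 0 of 35 (10.0%) and replication-dependent histones 0 of 18 (18.5%). Each upper limit lies above 2.88%, so the counts allow a share like that of all genes.

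In the lists closest to the cells and the mark, 2 of 30 neural stem cell genes and 3 of 34 genes of H3K9 methylation were hosts. The former were Egfr and Nes, the gene of the intermediate filament nestin, whose 73 bp lay in the coding part of its last exon (chr3:87976526-87976598), 1929 bp from a PHF2 peak. The latter were Zfp644, Cdyl, a chromodomain corepressor (73 bp, exon 4 of 10), and Kdm1a, a lysine demethylase (73 bp, exon 10 of 20). The exact intervals, 0.818% to 22.1% and 1.86% to 23.7%, include 2.88%.

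PHF2 removes methyl groups from H3K9, and its peaks in these cells were used as landmarks. No member overlapped a PHF2 peak, and 5 lay within 1 kb of one: Sephs2 at 404 bp, Mbd1 at 590 bp, Mrpl17 at 660 bp, Gm10961 at 829 bp and Sf3b5 at 879 bp. The median distance was 104348 bp. Few exonic bases near a peak could hold a member, since the rule leaves out bases within 1 kb of a start. Within 2 kb of a peak, 0.596 Mb of coding exon and 0.497 Mb of 3' UTR lay over 1 kb from a start. By their centres, 7 of the 282 coding regions, 3 of the 295 in 3' UTRs and 90 of the 12173 in introns lay under 2 kb from a peak. No share of the whole list is set beside the lack of overlap or the 5 within 1 kb. Neither can therefore be read as particular to exonic regions.

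Farther from PHF2 peaks the density in exons was higher. Coding exons had 3.96 regions per Mb (1.90 to 7.28) at 2 to 10 kb from a peak, where there were 10 regions, 6.90 (5.31 to 8.81) at 10 to 50 kb, 11.0 (9.001 to 13.2) at 50 to 200 kb and 15.5 (12.53 to 19.1) beyond 200 kb. Under 2 kb the 7 coding regions gave 11.7 per Mb (4.72 to 24.2), so the order did not hold in that thin class. In 3' UTRs the density rose from 6.45 per Mb (3.82 to 10.2) at 2 to 10 kb to 12.6 (10.2 to 15.3) beyond 200 kb. Introns went from 10.5 to 17.0 over the same classes. Coding exons stood at 0.378 (0.180 to 0.701) of the density of introns at 2 to 10 kb, at 0.649 (0.498 to 0.832) at 10 to 50 kb and at 0.914 (0.736 to 1.12) beyond 200 kb, where the interval includes 1. Under 2 kb the ratio was 1.37 (0.534 to 2.93), and the differences between these ratios were not tested. In 3' UTRs the ratio was 0.615 (0.362 to 0.983) at 2 to 10 kb and 0.738 (0.597 to 0.902) beyond 200 kb. Within all 5 distance classes, coding exons stood at 0.771 (0.685 to 0.868) of the density of introns and 3' UTRs at 0.737 (0.657 to 0.828).

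**Figure D4:**
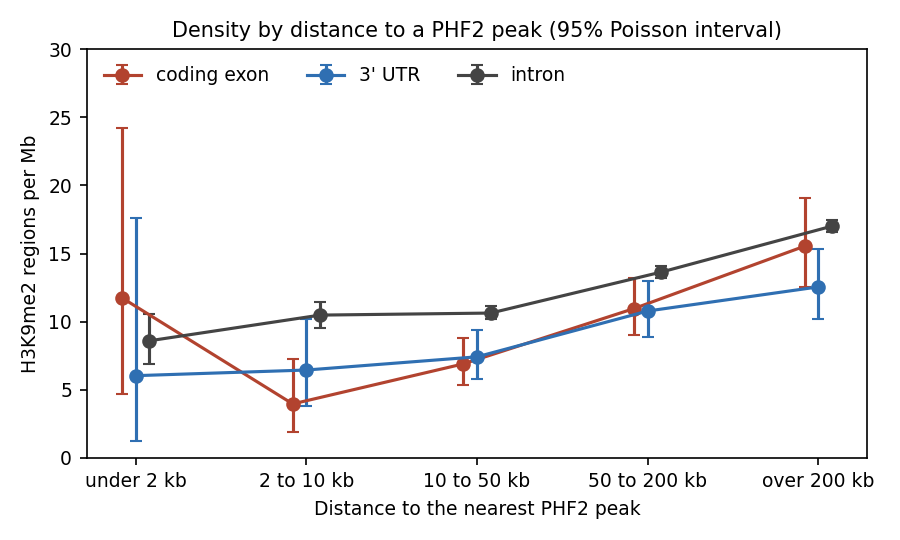
H3K9me2 regions per Mb (y axis) by distance to the nearest PHF2 peak (x axis, 5 classes) for coding exons, 3' UTRs and introns; points are densities and bars 95% Poisson intervals. From 2 to 10 kb outward all 3 lines climb, coding exons from 3.96 to 15.5, and the wide bars under 2 kb rest on few regions.

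Whether the host genes carry PHF2 at their promoters depended on what they were set against. Of all genes tested, 30.8% had a PHF2 peak within 1 kb of a start. Among the hosts it was 188 of 574 (32.8%, 28.9% to 36.8%), and among the other genes 30.8% (30.1% to 31.4%). Hosts of 3' UTR regions had one in 37.0% (31.4% to 42.7%) and hosts of coding regions in 29.2% (23.9% to 35.0%). Hosts have more exonic bases in total, and so do genes with PHF2. Per base, genes with a PHF2 promoter peak, chemoreceptors left out, had 8.16 regions per Mb against 10.5 in those without one, a ratio of 0.777 (0.648 to 0.929). Within groups of like exonic length, also without chemoreceptors, the share with PHF2 was 45.1% (39.3% to 51.1%) in hosts and 50.5% in other genes of the longest group, and 27.9% (20.6% to 36.3%) against 36.8% in the next. In the other two groups it was 20.3% (12.04% to 30.8%) against 26.0% and 19.05% (5.45% to 41.9%) against 18.9%. The interval of the hosts holds the value of the other genes in 3 of the 4 groups, the longest among them.

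**Figure D5:**
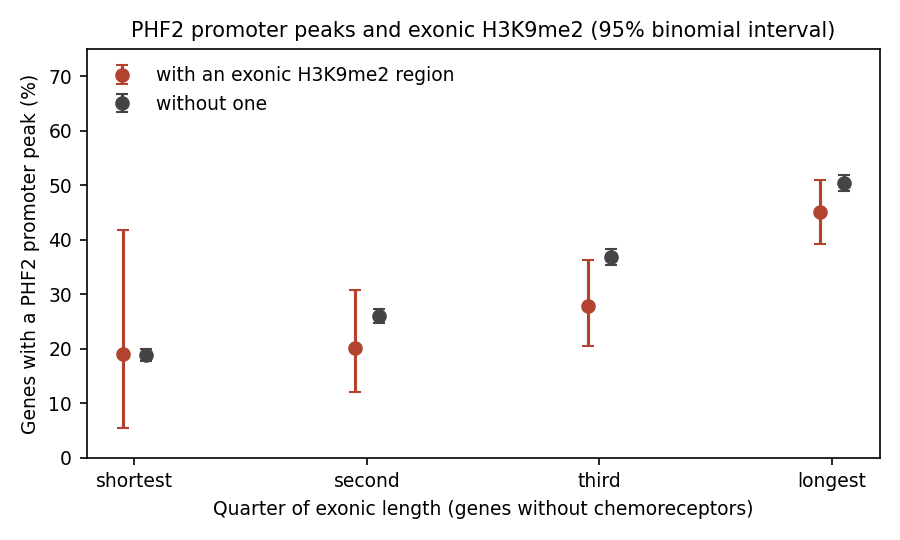
Percentage of genes with a PHF2 peak at a promoter (y axis) in 4 groups by exonic length (x axis, bounds set over all genes tested), for genes with and without an exonic H3K9me2 region, chemoreceptors left out; points are percentages and bars exact 95% binomial intervals. Both series climb with length, and in the longest group the hosts stand at 45.1% against 50.5%.

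Exonic regions were often found in genes that also had intronic ones. An intronic H3K9me2 region was present in 22.8% of all genes tested, in 267 of the 574 hosts (46.5%, 42.4% to 50.7%) and in 22.1% of the other genes. Hosts spanned a median of 44.3 kb and the other genes 17.9 kb. Among the genes of the longest span (the top of 4 equal groups), the share was 78.1% (72.7% to 82.8%) in hosts and 63.5% (62.1% to 64.9%) in others, and the regions in introns numbered 17.1 and 13.9 per Mb of gene. In the group below it was 29.4% (21.9% to 37.8%) against 19.4% (18.2% to 20.5%). In the group below that it was 9.26% (4.53% to 16.4%) against 5.99%, within the interval, and among the genes of the shortest span 0 of 52 hosts (0% to 6.85%) against 1.26%. The members were seldom crowded. Their median distance to the nearest other H3K9me2 region was 25806 bp, against 20430 bp over the list, and 10 of 587 (1.70%, 0.820% to 3.11%) had a neighbour under 1 kb away, against 4.20% of the list.

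Across chromosomes the density in exons ran from 6.39 regions per Mb on chromosome 19 (12 regions) to 12.6 on chromosome 9 (45 regions), with a total of 9.90 over all 19 (9.12 to 10.7).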

How the data were processed

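H3K9me2 and PHF2 ChIP-seq lists, 1 sample each, were analysed. Reads had been aligned with Bowtie2 to mm10, per the submitters' processing notes. MACS in Galaxy had called the PHF2 peaks, per the file headers. For H3K9me2, the calling program is not given in the sources used here. Only the name of the deposited H3K9me2 list mentions a p threshold. The score in the deposited H3K9me2 list is 0 throughout and the deposited PHF2 score was not used, so regions have positions and lengths only. Regions were placed by their centre on GENCODE M21 (coding sequence before 3' UTR before 5' UTR before intron), stop codons counted as coding. Densities divide regions by the bases of a class over 1 kb from a protein-coding start. Intervals are exact at 95% (Poisson, Clopper-Pearson, conditional for ratios), and those of ratios pooled over classes of GC or distance use the Mantel-Haenszel estimate. Copies of stretches of 31 bases were counted over the GRCm38 chromosomes and scaffolds on both strands. Scripts used Python 3.11.15 with numpy, pandas and scipy, and were tested on simulated regions with a known ratio and on a sequence with known copies. The rule for named genes took the 15 genes with most regions, the 10 longest regions per class, up to 4 genes per family by region length, all hosts within 1 kb of a PHF2 peak and all hosts in the list of H3K9 methylation genes; not all are printed. Alternatives changed the class order, the overlap, the start distance, the transcripts and the regions. The members, families and lists were chosen with earlier results of these data known. With 1 sample per group no test between conditions was possible.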

Additional observations from a re-analysis of the deposited data

Results flagged for a closer look

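Exonic H3K9me2 regions also lay on chromosome X, which the comparisons above do not use. X held 11 such regions, at 4.93 per Mb of exon away from starts (exact Poisson interval 2.46 to 8.83), where chromosomes 1 to 19 held 9.90 per Mb (9.12 to 10.7). Over whole chromosomes, X had 462 regions in all, at 2.70 per Mb, and chromosomes 1 to 19 had 14.5 per Mb. The number of X chromosomes in the cells is not given in the sources used here. Its part in the difference was not tested.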

How the results depend on the processing

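Of 99 recomputations, 88 kept counts within 1.5 times the value above or other values within its 95% interval. Some of the 88 could not move. The class order cannot change the number of members or the shares of genes, and counting near regions once cannot change these shares. Leaving out Ttn cannot change the shares of zinc finger and receptor genes. The count of 88 therefore overstates how stable the values are. Using only regions longer than 73 bp gave 248 members, 4.25 per Mb in coding exons, 4.06 per Mb in 3' UTRs, 0.649% of zinc finger genes and 1.79% of receptor genes, while the ratio of both exon classes was 1.05; fewer regions were counted by construction. Counting any overlap gave 14.6 per Mb in coding exons and a ratio of 1.47, and requiring the whole region inside exons gave 5.38 per Mb and 0.572. The share of members with repeated sequence was 2.56% with stretches of 24 bases and 5.96% where any stretch of 31 bases was repeated. The share of hosts with a PHF2 promoter peak ran from 31.8% to 36.1% over its alternatives. Recomputing the ratio of exon classes within GC classes, outside soft-masked bases, by both together and without chemoreceptors was chosen after seeing the data. No paired analysis was possible because each group has 1 sample. Depth is unknown and limits which regions could be called.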
